A study of Mus musculus with 6 samples.

Results

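The genes followed here are *Nrg1*, its ErbB receptors *Erbb2*, *Erbb3* and *Erbb4*, the trabecular myocardium genes *Bmp10*, *Nppa* and *Nppb*, the ephrin B2 and EphB4 pair *Efnb2* and *Ephb4*, and the hyaluronan synthase *Has2*. They were chosen by name for these roles, with earlier results of these data known. They make up 10 of 54532 genes of the deposited count table. All 10 passed the filter on low counts that left 19372 genes for testing. Their counts ran from 276 to 27819 reads per gene and heart.

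RNA-seq was performed on 6 individual mouse hearts at embryonic day 9.5 (E9.5), 3 *Smyd1-KO* and 3 WT, with hearts numbered 1 to 3 within each genotype. SMYD1 is a histone methyltransferase of striated muscle. *Smyd1-KO* embryos are homozygous for a mutated *Smyd1* allele that is present in every cell of the embryo, so no Cre line limits the loss to cardiomyocytes, whereas WT embryos carry the normal alleles. The *Smyd1+/-* line came from the Jackson Laboratory, embryos of both sexes were used, and the genetic background is not given in the sources used here. The comparison asks how RNA levels differ between the genotypes at a stage just before the mutant hearts fail.

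In the heart tube, endocardial cells release neuregulin 1 into the hyaluronan-rich cardiac jelly, and the ErbB2/ErbB4 receptor pair on cardiomyocytes receives it. This exchange is needed for trabeculae, the muscular ridges that grow into the ventricular lumen. BMP10 is secreted by trabecular cardiomyocytes and keeps them dividing, the natriuretic peptide genes *Nppa* and *Nppb* mark the same working myocardium, and ephrin B2 on the endocardium acts upstream of neuregulin 1.

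Total counts per heart ran from 48627825 to 64217529. Values are given as CPM, counts scaled to the size of each library with edgeR's TMM factors, and a log2 fold change is *Smyd1-KO* minus WT. To be called, a gene needed an adjusted *P* under 0.05 in edgeR's quasi-likelihood test and a log2 fold change of 0.5 or more in either direction. The targeted gene stood at 101, 222 and 206 CPM in *Smyd1-KO* hearts 1 to 3 and at 414, 379 and 269.8 CPM in WT hearts 1 to 3. All 3 *Smyd1-KO* hearts were below all 3 WT hearts (log2 fold change -1.01 ± 0.300, SE, edgeR adjusted *P* = 0.0973). DESeq2 gave an adjusted *P* of 0.00534, and without *Smyd1-KO* heart 1 the log2 fold change was -0.73 (edgeR adjusted *P* = 0.0586). Log2 fold changes below carry their SE in the same way. Reads still fell on the mutated gene, so its count alone does not show that the protein was lost.

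The tissue label was checked against 10 cardiomyocyte markers, all of which were abundant enough to test. Their mean log2 CPM was 8.60, 9.69 and 9.69 in *Smyd1-KO* hearts 1 to 3 and 9.70, 9.72 and 9.08 in WT hearts 1 to 3. *Smyd1-KO* heart 1 and WT heart 3 therefore carried less cardiomyocyte marker RNA, as a share of all reads, than the other 4 hearts. In bulk tissue, fewer cells of a type and less RNA per cell cannot be told apart, and this holds for every value that follows.

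None of the 10 genes was called, against 4.28% of all tested genes (2.86% higher and 1.42% lower). In each of the 10 the *Smyd1-KO* and WT hearts overlapped, whereas they did not overlap in 31.3% of all tested genes. The log2 fold change was above 0 in 8 genes and below 0 in 2, with a median of 0.20 against -0.00 over all tested genes. One gene, *Nppa*, had an unadjusted edgeR *P* under 0.05. DESeq2, the tool of the study's methods, called 1 of the 10, again *Nppa*, against 5.98% of its genes called higher. Without a filter on low counts edgeR also called *Nppa*, against 2.08% of genes called higher.

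**Figure D1:**
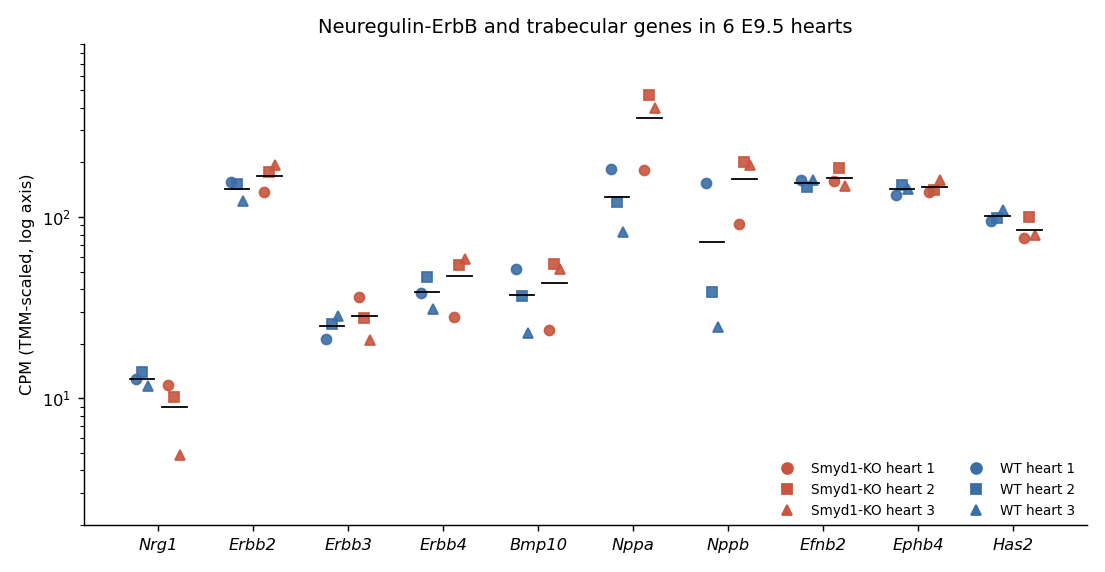
CPM (log axis) of the 10 genes in every heart, with WT hearts in blue, *Smyd1-KO* hearts in red, the marker shape giving the heart number and the bar giving the mean of 3 hearts. *Nppa* and *Nppb* spread most, with *Nppa* from 82.3 to 471 CPM, whereas *Efnb2* and *Ephb4* lie within narrow bands from 133 to 186 CPM.

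The regulatory windows of the trabecular genes of *Nppa*, *Nppb* and *Bmp10* are printed because these genes share the trabecular myocardium and are set against each other in the results. The sequences are those of RefSeq on GRCm38.p6, the plus strand, from 250 bases before to 50 bases after the annotated start. Capitals mark GATAA (the GATA core, or TTATC where it lies on the opposite strand), AAGTG (an NKX core), TCACAC (a T-box site), GGAATG (the MCAT element) and TATAAA (the TATA box), each searched on both strands.
*Nppa* (chr4:148000472-148000771): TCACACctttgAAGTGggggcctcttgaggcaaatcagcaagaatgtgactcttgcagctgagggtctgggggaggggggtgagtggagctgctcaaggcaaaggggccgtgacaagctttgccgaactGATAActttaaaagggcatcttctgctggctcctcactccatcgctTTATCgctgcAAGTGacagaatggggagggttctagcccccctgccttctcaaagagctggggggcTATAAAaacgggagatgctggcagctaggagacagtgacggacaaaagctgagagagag
*Nppb* (chr4:147985650-147985949): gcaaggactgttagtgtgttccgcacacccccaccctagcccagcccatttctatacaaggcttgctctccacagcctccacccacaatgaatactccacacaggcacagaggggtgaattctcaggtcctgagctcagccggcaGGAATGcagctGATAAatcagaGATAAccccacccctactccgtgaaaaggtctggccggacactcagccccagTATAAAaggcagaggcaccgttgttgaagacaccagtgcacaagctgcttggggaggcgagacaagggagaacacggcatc
*Bmp10* (chr6:87428744-87429043): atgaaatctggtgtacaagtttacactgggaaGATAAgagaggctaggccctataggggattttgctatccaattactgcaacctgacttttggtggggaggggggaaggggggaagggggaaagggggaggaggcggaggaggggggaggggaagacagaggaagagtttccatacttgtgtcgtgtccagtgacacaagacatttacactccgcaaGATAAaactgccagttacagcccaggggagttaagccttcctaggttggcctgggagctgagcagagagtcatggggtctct
The *Nppa* window held GATAA at positions -121 and -75 from the start, AAGTG at -239 and -65, TCACAC at -250 and TATAAA at -9. In the *Nppb* window GATAA was found at -94 and -83, GGAATG at -105 and TATAAA at -31. The *Bmp10* window held GATAA at -218 and -32 and no other of these motifs. GENCODE places the first base of *Nppb* upstream of this RefSeq start, at 147985788. Of the 10 genes, 7 had a RefSeq window, and 3 of these 7, the windows printed here, held GATAA. That motif occurred in 25.4% of all 32851 mouse windows of this length, AAGTG in 46.4%, TCACAC in 14.5%, GGAATG in 14.7% and TATAAA in 13.6%. The hypoxia response core ACGTG (19.6% of windows) and the CArG box (1.63%) were not found in any of the 7. A letter match is a description of the sequence and not evidence that a factor binds there.

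*Nrg1* (ENSMUSG00000062991, chr8:31814551-32884029, minus strand, GRCm38) encodes the ligand and is made in the heart mainly by the endocardium. It stood at 11.8, 10.2 and 4.84 CPM in *Smyd1-KO* hearts 1 to 3 and at 12.7, 14.03 and 11.7 CPM in WT hearts 1 to 3. The WT hearts lay close together, *Smyd1-KO* heart 3 was far below them, and *Smyd1-KO* heart 1 was within their range. The log2 fold change was -0.52 ± 0.306 (95% interval -1.24 to 0.20), with an edgeR adjusted *P* of 0.336. Without *Smyd1-KO* heart 3 it was -0.22, so the lower mean was carried largely by that heart.

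Markers of the cells that make *Nrg1* are given beside it. *Cdh5*, the endothelial cadherin, stood at 112, 137 and 163 CPM in the *Smyd1-KO* hearts and at 138, 152 and 125 CPM in the WT hearts, and was highest in *Smyd1-KO* heart 3. *Nfatc1*, a transcription factor gene of the endocardium that was picked out after its values were seen, was 17.5, 25.7 and 27.2 CPM in *Smyd1-KO* hearts 1 to 3, against 49.8, 43.8 and 32.1 CPM in WT hearts 1 to 3. All *Smyd1-KO* hearts were below all WT hearts in *Nfatc1* (log2 fold change -0.83, edgeR adjusted *P* = 0.0687), and its part in the *Nrg1* values was not tested. *Nfatc1* had the lowest log2 fold change of 12 endothelial and endocardial markers. Of these markers, 8 were above 0 and 4 below, with a median of 0.29. Counts of *Nrg1* per 100 counts of *Cdh5* were 10.5, 7.45 and 2.96 in *Smyd1-KO* hearts 1 to 3 and 9.19, 9.24 and 9.42 in WT hearts 1 to 3. The WT ratios were nearly equal, and the *Smyd1-KO* ratios lay on both sides of them. The mean log2 ratio differed by -0.59 (two-sided exact permutation test over hearts, *P* = 0.4, and 0.743 after adjustment over the 13 ratios computed).

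Of the 10 other ErbB ligands, 7 could be tested, and none was called. *Hbegf*, which binds EGFR and ErbB4, had a log2 fold change of -0.79 (edgeR adjusted *P* = 0.107), and *Nrg4*, an ErbB4 ligand, one of -0.66 (edgeR adjusted *P* = 0.115). *Nrg2*, the closest relative of *Nrg1*, had means of 0.987 ± 0.164 CPM (SD) for the 3 *Smyd1-KO* hearts and 0.730 ± 0.217 CPM for the 3 WT hearts.

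*Erbb2* (ENSMUSG00000062312, chr11:98412470-98437716, plus strand) encodes the co-receptor that binds no ligand itself. Its level was 138, 176 and 193 CPM in *Smyd1-KO* hearts 1 to 3 and 155, 152 and 123 CPM in WT hearts 1 to 3. *Smyd1-KO* hearts 2 and 3 were above all WT hearts and *Smyd1-KO* heart 1 was among them. *Erbb2* thus had a log2 fold change of 0.24 ± 0.149 (95% interval -0.11 to 0.59), with an edgeR adjusted *P* of 0.363.

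*Erbb4* (ENSMUSG00000062209, chr1:68032186-69108059, minus strand) encodes the receptor through which cardiomyocytes bind neuregulin 1. It measured 28.1, 54.7 and 58.9 CPM in *Smyd1-KO* hearts 1 to 3, compared with 37.8, 46.9 and 31.0 CPM in WT hearts 1 to 3. *Smyd1-KO* heart 1 was the lowest of the 6 hearts and the other two *Smyd1-KO* hearts were the highest. Its log2 fold change was 0.29 ± 0.281 (95% interval -0.37 to 0.95), with an edgeR adjusted *P* of 0.560. *Erbb4* per 100 counts of *Erbb2* was 20.4, 31.0 and 30.4 in the *Smyd1-KO* hearts and 24.4, 30.9 and 25.2 in the WT hearts. The balance of the receptor pair thus overlapped between genotypes (log2 difference 0.01, exact permutation *P* = 0.9).

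*Erbb3* (ENSMUSG00000018166, chr10:128567523-128589652, minus strand) encodes a neuregulin receptor with an impaired kinase, known in neural crest, glia and cushion mesenchyme. Levels were 36.3, 27.6 and 21.0 CPM in *Smyd1-KO* hearts 1 to 3 and 21.3, 25.6 and 28.4 CPM in WT hearts 1 to 3. The highest and the lowest heart were both *Smyd1-KO*. This gave a log2 fold change of 0.17 ± 0.207 (95% interval -0.31 to 0.66), with an edgeR adjusted *P* of 0.647.

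The order of the hearts by *Erbb3* was nearly that of *Sox10*, the defining neural crest transcription factor. *Sox10* stood at 51.6, 20.1 and 1.56 CPM in *Smyd1-KO* hearts 1 to 3 and at 8.71, 11.2 and 19.2 CPM in WT hearts 1 to 3. Both genes were highest in *Smyd1-KO* heart 1 and lowest in *Smyd1-KO* heart 3. *Foxd3*, which marks early crest, was 11.9 CPM in *Smyd1-KO* heart 1 and at most 1.12 CPM in the other 5 hearts. The 10 neural crest and glial markers summed to 104 to 745 CPM across *Smyd1-KO* hearts and 157 to 194 CPM across WT hearts. Of the 9 tested none was called, and their median log2 fold change was 0.91. *Crabp1* alone gave 553, 122 and 44.2 CPM in *Smyd1-KO* hearts 1 to 3 and 86.9, 94.6 and 96.9 CPM in WT hearts 1 to 3. *Ednrb*, another of these markers, did not follow *Sox10*, with 36.8, 14.9 and 33.4 CPM in *Smyd1-KO* hearts 1 to 3. The part of these markers in the *Erbb3* values was not tested. The 10 cushion mesenchyme markers summed to 619.5 to 1159 CPM across *Smyd1-KO* hearts and 543 to 782 CPM across WT hearts, and none of them was called either. Their median log2 fold change was -0.17, with 4 above 0 and 6 below. The lowest unadjusted edgeR *P* among them belonged to *Tbx2* (log2 fold change -0.45, adjusted *P* = 0.0763) and *Snai2* (log2 fold change 0.76, adjusted *P* = 0.0989).

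**Figure D2:**
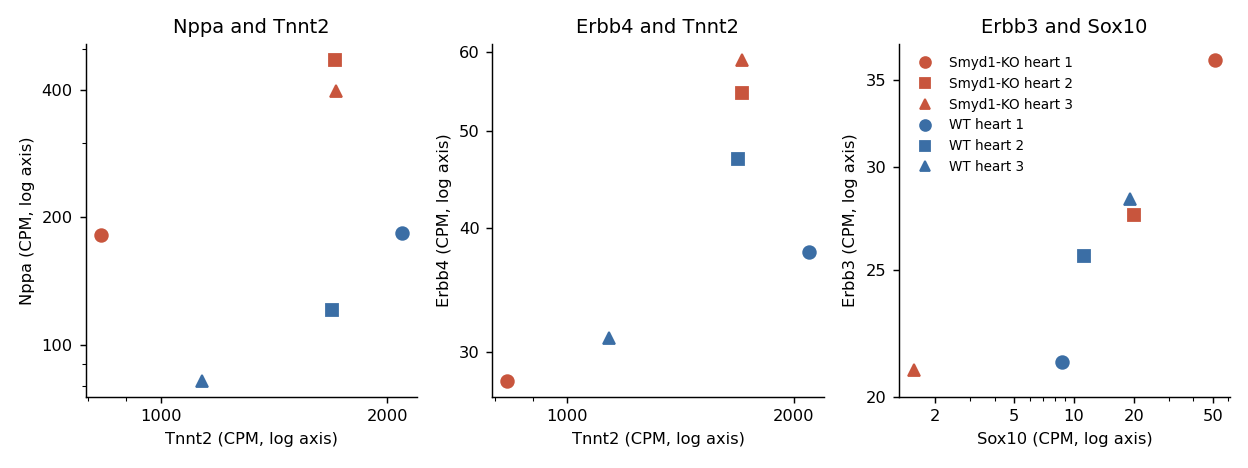
Pairs of genes in the 6 hearts (CPM, log axes), with *Nppa* against *Tnnt2*, *Erbb4* against *Tnnt2* and *Erbb3* against *Sox10*; WT hearts are blue and *Smyd1-KO* hearts red. *Smyd1-KO* heart 1 has the lowest *Tnnt2* value (832 CPM) and the lowest *Erbb4* value, and its *Sox10* (51.6 CPM) and *Erbb3* (36.3 CPM) are the highest.

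Among 20 genes for ErbB partners, ligand shedding and feedback, 2 rose and 1 fell. *Egfr*, the first ErbB receptor and a partner of ErbB2, was 8.51, 6.85 and 9.69 CPM in *Smyd1-KO* hearts 1 to 3 and 4.35, 4.54 and 3.77 CPM in WT hearts 1 to 3. Every *Smyd1-KO* heart was above every WT heart (log2 fold change 0.99 ± 0.182, edgeR adjusted *P* = 0.0297). *Errfi1*, a feedback inhibitor of EGFR and ErbB2 kinases, averaged 51.8 ± 2.80 CPM (SD) over the 3 *Smyd1-KO* hearts and 35.5 ± 2.85 CPM over the 3 WT hearts (log2 fold change 0.54 ± 0.0909, edgeR adjusted *P* = 0.0216). *Adam19*, a metalloprotease that can cut neuregulin precursors, fell from 114 ± 16.2 CPM in WT to 73.7 ± 7.67 CPM in *Smyd1-KO* hearts (log2 fold change -0.63, edgeR adjusted *P* = 0.0371). The median log2 fold change of the 20 genes was 0.03.

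*Bmp10* (ENSMUSG00000030046, chr6:87428994-87437677, plus strand) encodes the trabecular growth factor. It reached 23.9, 54.9 and 51.4 CPM in *Smyd1-KO* hearts 1 to 3 and 51.5, 36.4 and 22.8 CPM in WT hearts 1 to 3. Each genotype had hearts near the top and near the bottom of this range. For *Bmp10* the log2 fold change was 0.23 ± 0.373 (95% interval -0.64 to 1.11), with an edgeR adjusted *P* of 0.738.

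*Nppa* (ENSMUSG00000041616, chr4:148000722-148002079, plus strand) encodes atrial natriuretic peptide, which at this stage is made by trabecular ventricular and by atrial cardiomyocytes. Levels were 182, 471 and 398 CPM in *Smyd1-KO* hearts 1 to 3 and 184, 121 and 82.3 CPM in WT hearts 1 to 3. *Smyd1-KO* hearts 2 and 3 were far above every WT heart, and *Smyd1-KO* heart 1 was just below WT heart 1. Means were 350.0 ± 150.2 CPM (SD) over the 3 *Smyd1-KO* hearts and 129 ± 51.3 CPM over the 3 WT hearts. This is a log2 fold change of 1.44 ± 0.400, or 2.71-fold (95% interval 1.42 to 5.20), with an edgeR adjusted *P* of 0.0814. The call depended on the tool and the hearts. The adjusted *P* was 0.0300 in DESeq2, 0.0337 in edgeR without a filter on low counts, and 0.0208 in edgeR without *Smyd1-KO* heart 1.

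*Nppb* (ENSMUSG00000029019, chr4:147985788-147987205, plus strand) encodes B-type natriuretic peptide and ends 13517 bases before *Nppa* starts. *Nppb* reached 91.3, 202 and 194 CPM in *Smyd1-KO* hearts 1 to 3 and 154, 38.4 and 24.8 CPM in WT hearts 1 to 3. WT heart 1 was well above the other two WT hearts and above *Smyd1-KO* heart 1. The log2 fold change was 1.16 ± 0.667 (95% interval -0.40 to 2.73), with an edgeR adjusted *P* of 0.326. Single hearts decided its size, since the log2 fold change was 2.37 without WT heart 1 (edgeR adjusted *P* = 0.0507), 0.86 without WT heart 2 (edgeR adjusted *P* = 0.598) and 0.75 without WT heart 3 (edgeR adjusted *P* = 0.552).

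Because trabecular genes are made by cardiomyocytes, their counts were also set against those of *Tnnt2*, cardiac troponin T, within each heart. Such a ratio does not depend on how libraries are scaled. *Tnnt2* itself stood at 832, 1705 and 1708 CPM in *Smyd1-KO* hearts 1 to 3 and at 2093, 1688 and 1134 CPM in WT hearts 1 to 3 (log2 fold change -0.21, edgeR adjusted *P* = 0.723). It was lowest in *Smyd1-KO* heart 1, the heart that was also lowest in *Nppa* and *Bmp10* among the *Smyd1-KO* hearts.

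*Nppa* per 100 counts of *Tnnt2* was 21.9, 27.6 and 23.3 in *Smyd1-KO* hearts 1 to 3 and 8.79, 7.16 and 7.26 in WT hearts 1 to 3. Each *Smyd1-KO* heart was above each WT heart, and *Smyd1-KO* heart 1 no longer stood apart from its group. The mean ratio was 3.13-fold higher in *Smyd1-KO* hearts (log2 difference 1.65). With 3 hearts against 3 the two-sided exact permutation *P* cannot go below 0.1, the value reached here, and it was 0.260 after adjustment over the 13 ratios. Of 19371 genes, 8.39% had a ratio to *Tnnt2* with every *Smyd1-KO* heart above every WT heart and 1.53% with every *Smyd1-KO* heart below. A mean difference at least as large as that of *Nppa* was found in 1.85% of genes.

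*Nppb* per 100 counts of *Tnnt2* was 10.98, 11.8 and 11.3 in the *Smyd1-KO* hearts and 7.38, 2.27 and 2.19 in the WT hearts. The *Smyd1-KO* ratios were nearly equal and above all WT ratios, although WT heart 1 was well above the other two WT hearts. The log2 difference was 1.77, and 1.47 to 2.35 when 1 heart was left out. *Bmp10* per 100 *Tnnt2* was 2.87, 3.22 and 3.01 in the *Smyd1-KO* hearts and 2.46, 2.16 and 2.01 in the WT hearts. These groups did not overlap either, but the log2 difference was smaller, at 0.46, and its exact permutation *P* of 0.1 became 0.2 when the mean of the 10 cardiomyocyte markers took the place of *Tnnt2* (log2 difference 0.39). With that denominator, chosen after the data had been seen, the difference was 1.58 for *Nppa* and 1.70 for *Nppb*.

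The trabecular genes were also compared with each other. *Nppa* per 100 counts of *Bmp10* was 760.5, 857 and 774 in *Smyd1-KO* hearts 1 to 3 and 357, 332 and 361 in WT hearts 1 to 3. Within each genotype these ratios lay close together, and the *Smyd1-KO* ratios were 2.28-fold those of WT (log2 difference 1.19, exact permutation *P* = 0.1). Among all genes set against *Bmp10*, 1.96% had every *Smyd1-KO* heart above every WT heart and 3.37% every *Smyd1-KO* heart below. The log2 difference ran from 1.13 to 1.22 when 1 heart was left out. *Nppa* per 100 counts of *Nppb*, by contrast, was 199, 233 and 206 in the *Smyd1-KO* hearts and 119, 315 and 331 in the WT hearts. The ratio of the neighbouring natriuretic peptide genes overlapped between genotypes (log2 difference -0.13, exact permutation *P* = 1).

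**Figure D3:**
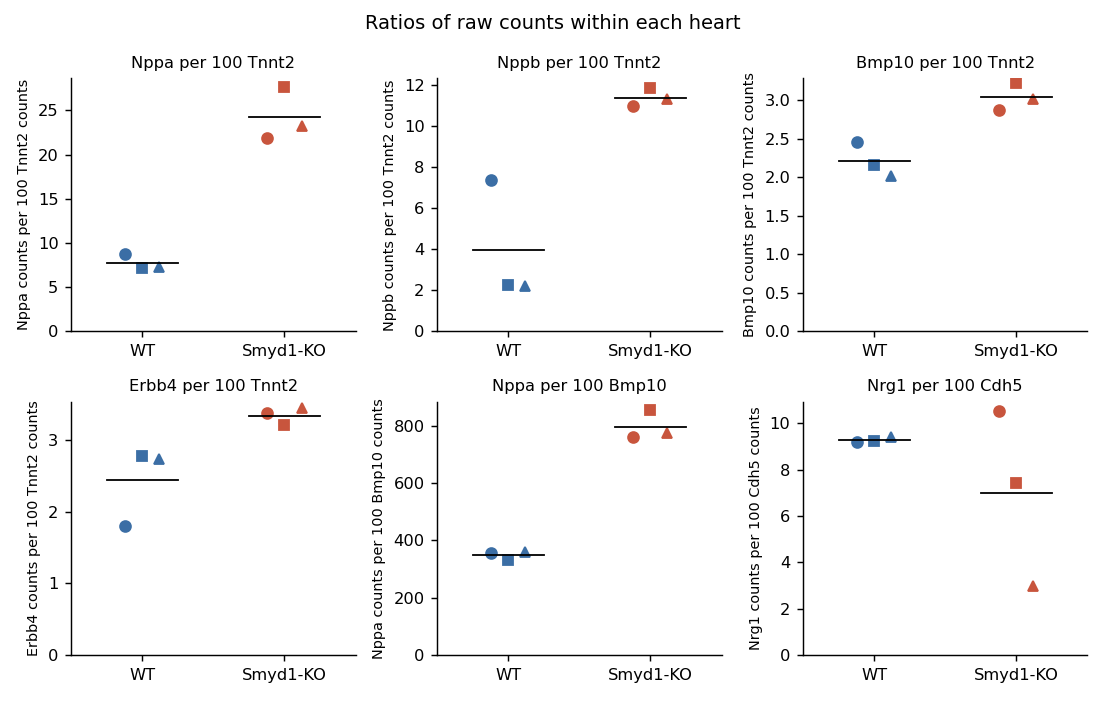
Counts of 1 gene per 100 counts of another in each heart, on linear axes from 0, with WT hearts in blue, *Smyd1-KO* hearts in red and the bar giving the group mean. The groups are apart for *Nppa*, *Nppb*, *Bmp10* and *Erbb4* per *Tnnt2* and for *Nppa* per *Bmp10* (760.5 to 857 against 332 to 361), whereas *Nrg1* per *Cdh5* overlaps.

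For the receptors, *Erbb4* per 100 counts of *Tnnt2* was 3.38, 3.21 and 3.45 in the *Smyd1-KO* hearts and 1.81, 2.78 and 2.73 in the WT hearts. The groups did not overlap (log2 difference 0.48, exact permutation *P* = 0.1). *Erbb2* per 100 *Tnnt2* was 16.5, 10.3 and 11.3 against 7.42, 9.005 and 10.8, and there *Smyd1-KO* heart 2 was below WT heart 3 (log2 difference 0.47, exact permutation *P* = 0.2). ErbB2 is made by many cell types besides cardiomyocytes. Of the 13 ratios computed, 5 did not overlap between genotypes. They are 4 of the 6 ratios to *Tnnt2*, for which the shares over all genes are 8.39% above and 1.53% below, and the ratio of *Nppa* to *Bmp10*. None had an adjusted *P* under 0.260.

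A second model, chosen after the data had been seen, fitted the mean log2 CPM of the 10 cardiomyocyte markers beside genotype. In it *Nppa* was called, with a log2 fold change of 1.59 ± 0.173 and an edgeR adjusted *P* of 0.00385, while 5.21% of all tested genes were called higher and 3.1% lower. *Erbb2* (log2 fold change 0.30, edgeR adjusted *P* = 0.0324) and *Erbb4* (log2 fold change 0.39, edgeR adjusted *P* = 0.0461) passed the *P* limit but not the fold limit. *Nppb* had a log2 fold change of 1.49 (edgeR adjusted *P* = 0.121) and *Bmp10* one of 0.40 (edgeR adjusted *P* = 0.126). The standard error in this model was 0.152 for *Bmp10*, 0.0984 for *Erbb4*, 0.0674 for *Erbb2*, 0.134 for *Erbb3*, 0.561 for *Nppb* and 0.301 for *Nrg1*. Without the marker term these were 0.373, 0.281, 0.149, 0.207, 0.667 and 0.306 in the same order. Neither *Nrg1* nor *Erbb3*, *Efnb2*, *Ephb4* or *Has2* was called. Of the 10 cardiomyocyte markers, 8 had a log2 fold change below 0 and 2 above in the genotype-only fit, and none was called. Whether their level itself depends on genotype was not tested.

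**Figure D4:**
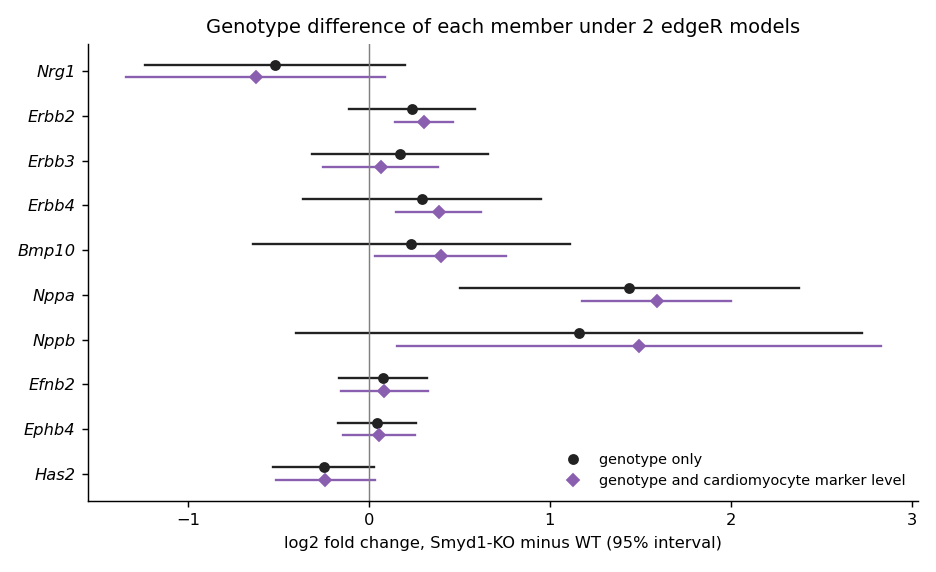
Log2 fold change (*Smyd1-KO* minus WT) of each of the 10 genes with its 95% interval, from edgeR with genotype only (black circles) and with genotype and cardiomyocyte marker level (purple diamonds). With the marker term the interval of *Nppa* narrows to 1.18 to 2.003 and those of *Erbb2*, *Erbb4*, *Bmp10* and *Nppb* no longer reach 0.

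Levels of chamber markers stood beside these values as follows. The 7 ventricular markers summed to 2359 to 5222 CPM across *Smyd1-KO* hearts and 2178 to 3443 CPM across WT hearts, with none called and a median log2 fold change of 0.29. Their 2 lowest unadjusted edgeR *P* belonged to *Hand1* (log2 fold change 0.73, adjusted *P* = 0.277) and *Myh7* (log2 fold change 0.62, adjusted *P* = 0.306). *Myl2*, a defining ventricular gene, was 207, 570.1 and 539 CPM in the *Smyd1-KO* hearts and 518, 373 and 247 CPM in the WT hearts, so *Smyd1-KO* heart 1 was again the lowest. The 10 atrial and sinus venosus markers summed to 1849.9 to 3686 CPM across *Smyd1-KO* hearts and 2324 to 4044 CPM across WT hearts, and none of the 9 tested was called. *Sln*, a defining atrial gene, had 1 to 9 counts per heart and was not tested. The part of chamber composition in the *Nppa* and *Nppb* values was not tested.

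Other trabecular and conduction-fated genes gave no call in 10 tested. *Gja5*, the connexin 40 gene of trabeculae, was 12.3, 22.7 and 23.5 CPM in the *Smyd1-KO* hearts and 29.4, 28.4 and 22.7 CPM in the WT hearts (log2 fold change -0.46, edgeR adjusted *P* = 0.295). Its direction was opposite to that of *Nppa*, and its groups overlapped. *Irx3* (log2 fold change 0.63, edgeR adjusted *P* = 0.321) was highest in *Smyd1-KO* heart 1, at 176 CPM. The 2 genes with the lowest unadjusted edgeR *P* were *Sema3a* (log2 fold change -0.33, adjusted *P* = 0.131) and *Cpne5* (log2 fold change -0.50, adjusted *P* = 0.192). The median of the 10 was 0.14.

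Of 8 genes of the compact wall, the layer outside the trabeculae, 1 was called. *Ccnd2*, a D-type cyclin, fell from 489.6 ± 54.5 CPM in WT to 338 ± 24.8 CPM in *Smyd1-KO* hearts (log2 fold change -0.53, edgeR adjusted *P* = 0.0401). *Hey2* (log2 fold change 0.31, edgeR adjusted *P* = 0.460) and *Mycn* (log2 fold change 0.22, edgeR adjusted *P* = 0.491), transcription factors of this layer, were not called.

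Receptors and effectors of BMP10 gave 1 call in 23, with a median log2 fold change of -0.03. *Acvrl1*, the ALK1 receptor that binds BMP10 on endothelium, was 19.7, 18.2 and 21.1 CPM in *Smyd1-KO* hearts 1 to 3 and 10.8, 11.9 and 12.6 CPM in WT hearts 1 to 3. The groups were well apart, with a log2 fold change of 0.74 ± 0.118 and an edgeR adjusted *P* of 0.0192. Among 7 tested genes for natriuretic peptide processing and receptors, none was called, and the clearance receptor *Npr3* came nearest (log2 fold change -0.52, edgeR adjusted *P* = 0.0567). *Furin*, which can cut the natriuretic peptide precursors, was next (log2 fold change -0.32, edgeR adjusted *P* = 0.308).

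*Nppa* and *Nppb* lie in 1 gene cluster, so 7 of their neighbours were examined. One of these was called. *Plod1*, a collagen lysyl hydroxylase, rose from 50.8 ± 5.62 CPM in WT to 86.3 ± 10.2 CPM in *Smyd1-KO* hearts (log2 fold change 0.76, edgeR adjusted *P* = 0.0187), and the median of the 7 was 0.07.

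The 15 endocardial regulators of trabeculation included 1 call, a fall. *Klf2*, a shear-responsive transcription factor of the endocardium, was 2.76, 4.43 and 5.64 CPM in *Smyd1-KO* hearts 1 to 3 and 15.3, 15.8 and 12.7 CPM in WT hearts 1 to 3. This is a log2 fold change of -1.77 ± 0.263 with an edgeR adjusted *P* of 0.0158. The receptor *Notch1* (log2 fold change 0.26, edgeR adjusted *P* = 0.293) and its ligand *Dll4* (log2 fold change 0.65, edgeR adjusted *P* = 0.0636), which act upstream of *Efnb2* and *Nrg1*, were not called.

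*Efnb2* (ENSMUSG00000001300, chr8:8617434-8661242, minus strand) encodes the ephrin of arterial endothelium and endocardium. It was 157, 186 and 148 CPM in *Smyd1-KO* hearts 1 to 3 and 159, 146 and 159 CPM in WT hearts 1 to 3. The groups overlapped almost fully. The log2 fold change was 0.08 ± 0.104, and its 95% interval of -0.16 to 0.32 left out any change as large as the calling limit of 0.5 (edgeR adjusted *P* = 0.672).

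*Ephb4* (ENSMUSG00000029710, chr5:137350109-137378669, plus strand) encodes its venous receptor. Values of 138, 141 and 161 CPM in *Smyd1-KO* hearts 1 to 3 compared with 133, 150.5 and 143 CPM in WT hearts 1 to 3. *Ephb4* had the smallest log2 fold change of the 10 genes, 0.04 ± 0.0918 (95% interval -0.17 to 0.26, edgeR adjusted *P* = 0.803). *Efnb2* per 100 counts of *Ephb4* was 114, 131 and 92.4 in the *Smyd1-KO* hearts and 120.1, 96.8 and 111 in the WT hearts, with overlap (log2 difference 0.03, exact permutation *P* = 0.9). Set against *Cdh5*, *Efnb2* differed by 0.10 and *Ephb4* by 0.06 on the log2 scale (exact permutation *P* = 0.6 for each).

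Of the 7 other B-class ephrin and Eph genes, *Ephb1* fell. This receptor for B-class ephrins was 12.3, 10.4 and 11.6 CPM in the *Smyd1-KO* hearts and 18.9, 27.8 and 21.1 CPM in the WT hearts (log2 fold change -0.98 ± 0.166, edgeR adjusted *P* = 0.0223). None of the other 6 was called, and the median of the 7 was 0.22.

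*Has2* (ENSMUSG00000022367, chr15:56665627-56694539, minus strand) encodes the enzyme that makes the hyaluronan of the cardiac jelly. It stood at 76.3, 99.4 and 79.3 CPM in *Smyd1-KO* hearts 1 to 3 and at 95.1, 98.7 and 109.8 CPM in WT hearts 1 to 3. *Smyd1-KO* hearts 1 and 3 were below all WT hearts, and *Smyd1-KO* heart 2 was within the WT range. *Has2* had a log2 fold change of -0.25 ± 0.118 (95% interval -0.53 to 0.03), with an edgeR adjusted *P* of 0.239. Per 100 counts of *Tnnt2*, *Has2* was 9.18, 5.83 and 4.65 in the *Smyd1-KO* hearts and 4.54, 5.85 and 9.68 in the WT hearts, with full overlap (log2 difference -0.02, exact permutation *P* = 0.9).

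The 2 other hyaluronan synthase genes gave few reads. *Has3* averaged 1.56 ± 0.452 CPM (SD) over the 3 *Smyd1-KO* hearts and 2.45 ± 0.594 CPM over the 3 WT hearts and was not called (edgeR adjusted *P* = 0.219), and *Has1* had 3 to 12 counts per heart and was not tested. Of 14 tested hyaluronan and cardiac jelly genes, 1 was called. *Stab2*, a scavenger receptor for hyaluronan on sinusoidal endothelium, was 2.49, 3.52 and 5.68 CPM in the *Smyd1-KO* hearts and 0.504, 0.614 and 0.571 CPM in the WT hearts. All *Smyd1-KO* hearts were above all WT hearts (log2 fold change 2.79 ± 0.340, edgeR adjusted *P* = 0.00861). *Vcan*, the versican core protein that hyaluronan binds in the jelly, was not called (log2 fold change -0.22, edgeR adjusted *P* = 0.468). The median of the 14 was -0.05.

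**Figure D5:**
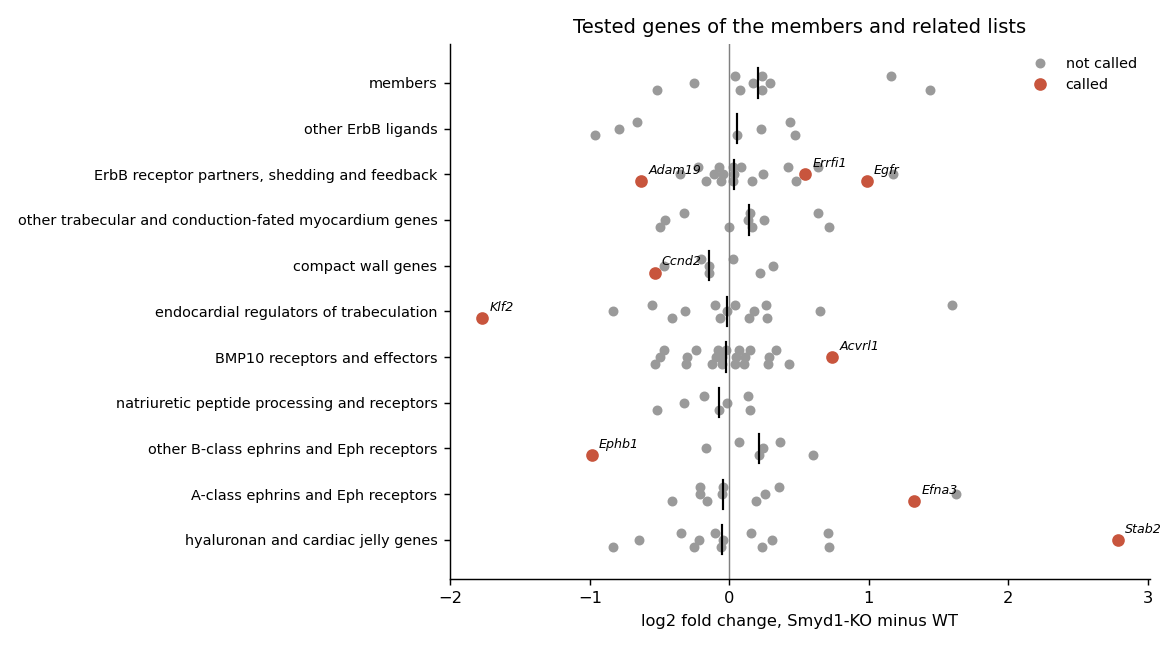
Log2 fold change (*Smyd1-KO* minus WT) of every tested gene of the 10 genes and of 10 related lists, with called genes in red and named, other genes in grey and the black bar giving each list's median. The list medians lie between -0.15 and 0.22, and the called genes run from *Klf2* (-1.77) to *Stab2* (2.79).

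Levels of different genes were compared only per length, as FPKM computed here from the TMM-scaled CPM and the exonic length of each gene. In WT hearts *Nppa* came first at 149 ± 59.3 FPKM (SD, n = 3), and *Nppb* followed at 92.9 ± 91.3 FPKM. *Ephb4* (30.6 ± 1.92 FPKM), *Erbb2* (27.5 ± 3.40 FPKM), *Has2* (23.9 ± 1.81 FPKM) and *Efnb2* (22.6 ± 1.15 FPKM) formed a middle group. Each neighbouring pair from *Nppa* to *Efnb2* overlapped between hearts, so the order of neighbours is not resolved there. Genes farther apart did separate, since *Nppa* was above *Ephb4*, and *Ephb4* above *Has2* and *Efnb2*, in every WT heart. The separation of *Ephb4* from *Efnb2* depended on the length used. With the length of the longest transcript, *Efnb2* was 33.3, 30.4 and 33.3 FPKM in WT hearts 1 to 3 and *Ephb4* 30.6, 34.7 and 33.0 FPKM. Below the middle group came *Bmp10* at 8.22 ± 3.19 FPKM, *Erbb3* at 4.17 ± 0.595 FPKM, *Erbb4* at 3.12 ± 0.647 FPKM and *Nrg1*, the ligand, at 1.24 ± 0.112 FPKM. *Efnb2* was above *Bmp10*, *Bmp10* above *Erbb3* and *Erbb4* above *Nrg1* in every WT heart, while *Erbb3* and *Erbb4* overlapped.

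In *Smyd1-KO* hearts the order was nearly the same. *Nppa* stood at 405 ± 174 FPKM and *Nppb* at 208 ± 78.8 FPKM, and both were above *Erbb2* (32.5 ± 5.499 FPKM) and *Ephb4* (31.6 ± 2.64 FPKM) in every heart. *Efnb2* (23.9 ± 2.86 FPKM) and *Has2* (20.1 ± 2.96 FPKM) followed. *Bmp10* (9.66 ± 3.78 FPKM), *Erbb3* (4.70 ± 1.28 FPKM) and *Erbb4* (3.82 ± 1.35 FPKM) again preceded *Nrg1* (0.863 ± 0.352 FPKM). Receptor RNA per length thus exceeded ligand RNA in both genotypes. The size of the gap depended on the length used. With the length of the longest transcript, WT means were 2.37 ± 0.214 FPKM for *Nrg1* and 3.20 ± 0.664 FPKM for *Erbb4*, and their hearts overlapped.

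The 5 genes whose levels followed *Nppa* most closely over the 6 hearts were sought among 10357 genes whose log2 CPM averaged 3 or more. Pearson's r with *Nppa* was 0.997 for the amino acid transporter gene *Slc7a1*, 0.995 for *Ptp4a2*, 0.992 for *Bcar1*, 0.991 for *Sccpdh* and 0.990 for *Gadd45b*. *Slc7a1* stood at 59.3, 91.5 and 88.3 CPM in *Smyd1-KO* hearts 1 to 3 and at 62.9, 49.4 and 40.6 CPM in WT hearts 1 to 3, so *Smyd1-KO* heart 1 and WT heart 1 were again close. None of these 5 was called, and their log2 fold changes lay between 0.28 and 0.64. *Nppb* came 360th with r = 0.92 and *Bmp10* 1596th with r = 0.76. These values describe 6 libraries that share their genotype groups, and no test was made on them.

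Some of the 10 genes share exonic bases with a gene on the opposite strand, and the strand setting of the counting is not given in the sources used here. *Nppa* shares 532 bases with *Gm13054*, *Nrg1* shares 482 with *Gm26578*, *Has2* shares 182 with *Has2os*, *Ephb4* shares 33 with *Zan* and *Erbb2* shares 9 with *Mien1*. Without strand, reads from such bases cannot be told apart. *Gm13054* had 17 to 65 counts per heart, against 5483 to 27819 for *Nppa*, and *Has2os* had 39 to 88 against 3712 to 7311 for *Has2*. The counting tool is not given either, so these counts do not show whether reads from the shared bases were counted for either gene. The same limit holds for the FPKM of these genes.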

How the data were processed

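RNA-seq was performed on 6 individual mouse hearts at E9.5, 3 *Smyd1-KO* and 3 WT, grouped by the genotype in the labels. The authors selected poly A RNA, sequenced paired ends and aligned reads to mm10 with STAR through bcbio-nextgen. The deposited table used here holds raw counts of reads per gene, made by the authors without normalization. The counting tool, annotation release and strand setting are not given in the sources used here. A second deposited table, of normalized values, was not used. Every column had a mapped sample (0 without).

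Genotypes were compared with edgeR 4.0.16 in R 4.3.3 (filterByExpr, TMM, quasi-likelihood test, Benjamini-Hochberg adjustment over 19372 genes), which was tested on simulated data. A called gene had an adjusted *P* under 0.05 and a log2 fold change of 0.5 or more in either direction, the limits of the study's methods. Intervals have a confidence level of 95%. No molecular identifiers are named, so reads are not independent molecules. Nothing says whether hearts of a genotype shared a litter, and *P* values measure the spread between these hearts only.

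Ratios within a heart used log2 CPM with a prior count of 2 and two-sided exact permutation tests over the 20 arrangements of hearts, adjusted over 13 ratios. Lengths and positions came from GENCODE on GRCm38, and promoter windows from RefSeq on GRCm38.p6. Tables and plots were made in Python 3.11.15 with pandas 2.3.3, scipy 1.17.1 and matplotlib 3.10.9.

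Members and lists were chosen with earlier results of these data known. Named by rule were the 10 genes, the called genes of each list or, where none was called, the 2 with the smallest *P*, the denominators of ratios, *Smyd1*, the 5 genes most like *Nppa* and a set of defining markers. Genes that share exonic bases with a member on the opposite strand were named for their position. *Crabp1*, *Ednrb*, *Epcam* and *Cdh1* were named after their values were seen, beside the sums of their lists. Some marker genes are not reported here. Alternatives were DESeq2 1.42.0, limma 3.58.1 voom, RLE and upper-quartile normalization, other filters on low counts, omitting haemoglobin and mitochondrially encoded genes, no fold limit, robust estimation, the replicate number as a block, leaving out each heart, other prior counts and gene lengths. The cardiomyocyte marker level as a covariate and as a denominator was added after the data had been seen.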

Additional observations from a re-analysis of the deposited data

How the results depend on the processing

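Over 17 alternative settings and 10 genes, 162 of 170 log2 fold changes kept their direction and their call. Another 4 became called, and 4 changed direction. Since a call needs both limits, values counted as kept could still cross the *P* limit or the fold limit alone. *Erbb2* and *Erbb4* crossed the *P* limit with the cardiomyocyte marker level as a covariate. *Nrg1* crossed the fold limit without *Smyd1-KO* heart 3 (log2 fold change -0.22). The number of genes called higher was 0 and became 1, *Nppa* in each case, in DESeq2 (1), without a filter on low counts (1) and with the cardiomyocyte marker level as a covariate (1, a setting chosen after the data had been seen). Leaving out 1 heart gave 0 to 1 genes called higher, the 1 being *Nppa* without *Smyd1-KO* heart 1. No setting called a gene lower. When 1 heart was left out, the log2 fold change ran from -0.047 (without *Smyd1-KO* heart 1) to 0.35 for *Erbb3*, from -0.015 (without WT heart 3) to 0.56 for *Bmp10*, from -0.019 (without *Smyd1-KO* heart 2) to 0.15 for *Efnb2* and from -0.025 (without *Smyd1-KO* heart 3) to 0.088 for *Ephb4*. These 4 had no call in any setting. For *Nppa* the log2 fold change ran from 1.17 to 1.79 and its adjusted *P* from 0.0208 to 0.250 when 1 heart was left out.

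Whether replicate numbers pair the hearts is not known, since nothing says whether same-numbered hearts, which are different embryos, shared a litter. Deviations of same-numbered hearts from their group means correlated at -0.22, -0.05 and -0.18, against -0.16 to 0.29 for hearts of different number. With 3 hearts per genotype these values cannot decide the question. With the replicate number as a block, 0 of the 10 genes were called higher and 0 lower, *Nppa* had a log2 fold change of 1.43 (edgeR adjusted *P* = 0.237), and 59 of all tested genes were called, compared with 830 without the block. Over all genes, leaving out 1 heart gave between 89 and 809 genes called higher and between 8 and 447 called lower. The order of WT levels per length placed *Erbb2* 5th, *Efnb2* 4th and *Has2* 6th with the length of the longest transcript. The cause of these changes was not tested.

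With 3 hearts per genotype the interval of *Nppb* spans -0.40 to 2.73 on the log2 scale, so neither a large rise nor no change is excluded by it, and counting error is small beside this spread at counts of 276 or more.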

Other observations

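Beyond the trabecular and ErbB genes, RNA of endothelial and arterial identity was measured in the same hearts. Of 12 endothelial and endocardial markers 2 rose, the transcription factor gene *Sox17* (log2 fold change 1.24 ± 0.171, edgeR adjusted *P* = 0.0129) and the tight junction gene *Cldn5* (log2 fold change 0.996 ± 0.189, edgeR adjusted *P* = 0.0320), and the median of the 12 was 0.29. *Sox17* also was the 1 called gene among 11 arterial and venous markers, whose median was 0.29. *Sox17* stood at 30.6, 37.6 and 43.2 CPM in *Smyd1-KO* hearts 1 to 3 and at 15.1, 18.6 and 13.4 CPM in WT hearts 1 to 3. *Efnb2*, also an arterial gene, overlapped between genotypes, and *Dll4*, the arterial Notch ligand gene, was above WT in every *Smyd1-KO* heart but was not called. Of 11 A-class ephrin and Eph genes tested, 1 rose. *Efna3*, an A-class ephrin, averaged 2.57 ± 0.484 CPM (SD) over the 3 *Smyd1-KO* hearts and 1.02 ± 0.322 CPM over the 3 WT hearts (log2 fold change 1.33, edgeR adjusted *P* = 0.0480).

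Markers of other tissues were also read in the dissected samples. Of 10 primitive erythroid markers, 3 were called, each lower, and all 10 had a log2 fold change below 0, with a median of -2.65. They summed to 28.1 to 283 CPM across *Smyd1-KO* hearts and 749.6 to 1002 CPM across WT hearts. The transcription factor gene *Gata1* (log2 fold change -3.14, edgeR adjusted *P* = 0.0445) and *Alas2*, the erythroid enzyme of haem synthesis (log2 fold change -2.19, edgeR adjusted *P* = 0.0428), were among those called. One of 8 epicardial markers rose, *Krt19*, from 56.9 ± 15.3 CPM in WT to 192 ± 55.2 CPM in *Smyd1-KO* hearts (edgeR adjusted *P* = 0.0173). None was called among 10 tested foregut, hepatic and surface epithelium markers, 8 outflow tract markers, 10 cardiomyocyte markers and 3 tested macrophage markers. All 11 foregut, hepatic and surface epithelium markers summed to 783 to 1215 CPM across *Smyd1-KO* hearts and 556 to 607 CPM across WT hearts. Of the 10 tested, 8 had a log2 fold change above 0 and 2 below, with a median of 0.70. The epithelial genes *Epcam* (log2 fold change 0.14) and *Cdh1* (log2 fold change -0.07) overlapped between genotypes, so the higher sum was not shared by every marker. The part of these tissues in the levels of *Nrg1*, *Erbb2*, *Erbb3* and *Has2* was not tested.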
